A study of Canis lupus familiaris with 6 samples.

Results

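The Toll-like receptors TLR1 to TLR10 were followed through a comparison of β-cat ΔN/RasV12 cells grown alone or among β-cat ΔN neighbours. Members were the non-control array probes whose gene name in the array design was one of these 10 symbols. 9 of the 10 receptors had a probe, out of 14228 gene names in the design, and they were read by 13 probes. No probe carried the name TLR6.

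All samples were MDCK cells, an established epithelial line from dog kidney, and all carried mCherry-β-catenin Δ131, a stabilised β-catenin without its N-terminus, and tetracycline-induced GFP-RasV12, an active Ras oncoprotein. They were grown alone (single culture, 3 arrays) or as 1 RasV12 cell to 10 MDCK mCherry-β-catenin Δ131 cells without RasV12 (mix culture, 3 arrays), and both groups received tetracycline for 24 h before GFP-positive cells were sorted. The comparison asks what β-cat ΔN neighbours change in the RNA of the β-cat ΔN/RasV12 cells. The study picked TLR3 from these same arrays, so its value here is not independent evidence. The paper also reported higher TLR3 in co-culture by q-PCR. With a TLR3 inhibitor it reported less NF-κB activation, MMP21 upregulation and basal extrusion, in these cells and in organoids. These arrays do not test those experiments. From these same arrays, a pathway analysis in the paper found Toll-like receptor signalling activated, and that analysis was not repeated here. Whether replicates came from separate cultures is not stated in the labels, so p-values measure the spread between these arrays, which may be technical.

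Toll-like receptors are membrane proteins that recognise microbial or endogenous molecules through leucine-rich repeats and signal through a cytoplasmic TIR domain. TLR1, TLR2, TLR4, TLR5, TLR6 and TLR10 act mainly at the cell surface, whereas TLR3, TLR7, TLR8 and TLR9 read nucleic acids in endosomes. TLR3 signals through the adaptor TICAM1 (TRIF), the other receptors mainly through MYD88, and both routes lead to NF-κB and interferon regulatory factors.

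Probe sequences of TLR3, TLR9, TLR1 and TLR2 are shown because an array measures a gene only through such a stretch of bases. Each is 60 bases long, was copied from the deposited array files and is written 5′ to 3′ in the sense of the transcript. Capitals mark every run that a probe of another receptor also holds at the longest length found for that probe, which was 8 bases for TLR3 and TLR2 and 7 for TLR9 and TLR1.
TLR3: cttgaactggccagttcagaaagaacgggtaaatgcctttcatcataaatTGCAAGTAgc
TLR9: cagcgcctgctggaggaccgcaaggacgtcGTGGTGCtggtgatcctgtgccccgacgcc
TLR1: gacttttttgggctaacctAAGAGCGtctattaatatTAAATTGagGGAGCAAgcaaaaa
TLR2: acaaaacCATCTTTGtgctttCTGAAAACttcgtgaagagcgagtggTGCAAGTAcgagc

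The TLR3 probe shared a run of 8 bases with a TLR2 probe, and its longest run in common with any probe of another name was 13 bases, in a probe of SLBP. The TLR9 probe was GC-rich, at 70% GC, against 41.7% for TLR3, 35% for TLR1 and 45% for the TLR2 probe shown. Per the file headers the probes lie on CanFam3.1, where TLR3 was read at chr16:44618804-44618863 on the minus strand, TLR9 at chr20:37546736-37546795, TLR1 at chr3:73544560-73544619 and the TLR2 probe shown at chr15:51464976-51465035, these last 3 on the plus strand. The exons or UTRs that the probes fall in were not annotated here.

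The arrays set the limits of the comparison. Of 43803 non-control spots per array, 61.1% to 65.7% were well above background by the scanner software's own test, and the lowest such signal was 4.19 to 4.48 intensity units. Replicate 1 of each group lay on slide 1 and the other 4 arrays on slide 2, and 47.2% of tested probes differed between the slides (limma, with the culture in the model), so values within each slide are given beside the results. Over all 26623 tested probes, 235 (0.883%) passed an adjusted p under 0.05, of which 217 (0.815% of those tested, 92.3% of the calls) were higher in mix culture. With the replicate number as a block, 1399 probes passed, and 4077 did from the log2 values that the authors had centred, of which 47.8% were higher. That centring was within the slide on slide 1 and was not checked on slide 2. The fit of those values held no slide term, so their p-values cannot be relied on. All 6 kidney epithelial markers with a probe (CDH1, EPCAM, KRT18, CDH16, CLDN4 and TJP1) were well above background on all 6 arrays. Of 8 leukocyte markers, which bear on these receptors because leukocytes express many of them, PTPRC, LYZ, MS4A1 and AIF1 were well above background on no array, whereas CD68 and CD3E were on all 6, as were 3 of 5 endothelial and 2 of 5 fibroblast markers. All samples were sorted cells of an epithelial line, so signal from such markers was not read as the presence of other cell types. The summed level of the 8 leukocyte markers, each in percent of the array's 75th percentile of signal, was 118 to 139 in single culture and 111 to 123 in mix culture, most of it from CD68. Without CD68 the other 7 summed to 12.4 to 15.9 and 11.4 to 14.9. The 6 kidney epithelial markers summed to 40083 to 49565 in single culture and 31416 to 40120 in mix culture, most of it from KRT18. The log2 difference of each was below 0, from -0.87 for CLDN4 to -0.02 for EPCAM. The median over all tested probes was also below 0, at -0.05. Of the 24 markers with a probe 15 could be tested, and none passed.

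Of the 9 receptors with a probe, 5 could be measured on all 6 arrays and 4 (TLR4, TLR5, TLR8 and TLR10) were at or near background. 5 of the 13 probes were well above background on all 6 arrays, and they read TLR1, TLR2, TLR3, TLR7 and TLR9. Another 5 were well above background on no array, at signals of 0.88 to 1.61 intensity units. For comparison, 58.8% of all non-control probes were well above background on all 6 arrays and 32.3% on none. Signals of different probes depend on their sequences, so levels were not ranked between receptors.

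**Figure D1:**
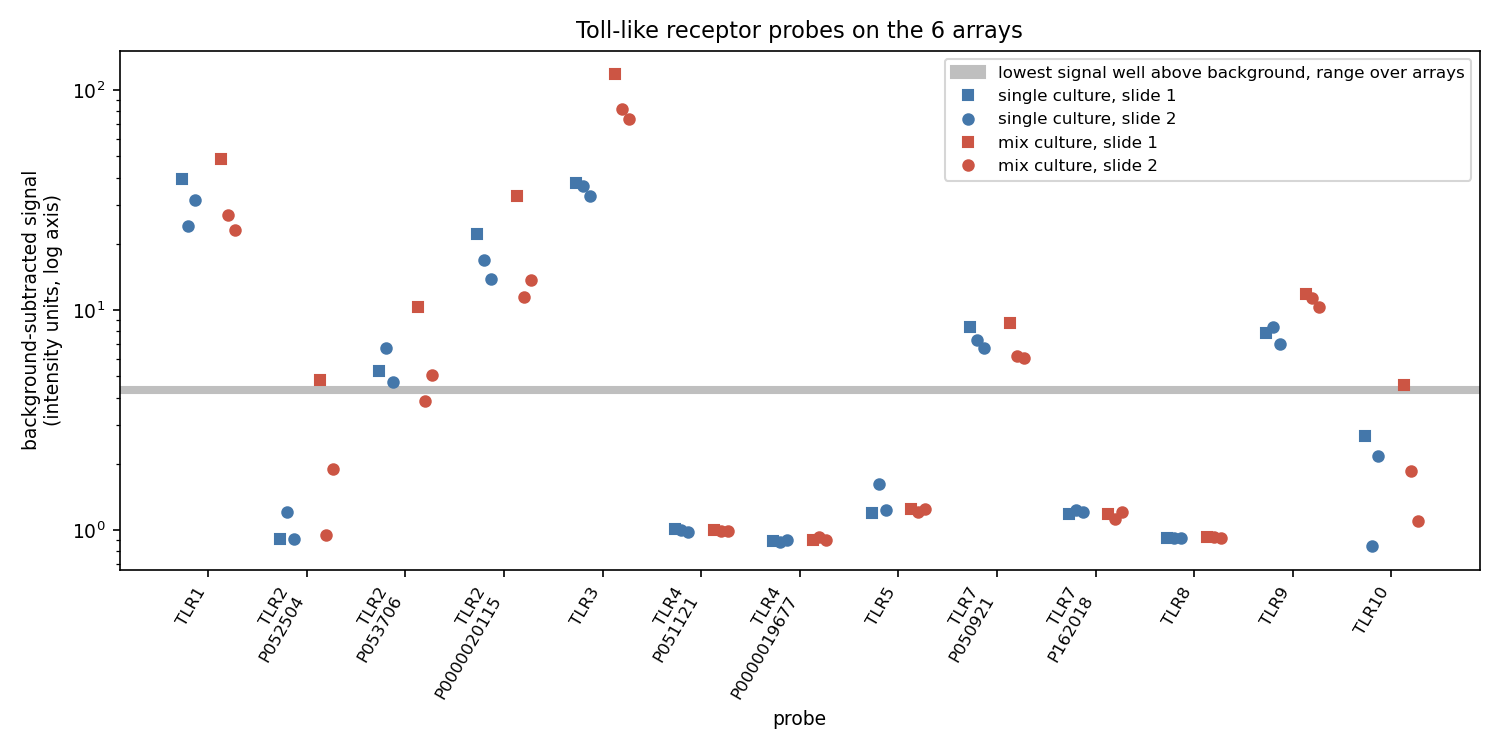
Background-subtracted signal in intensity units (log axis) of each of the 13 receptor probes on each of the 6 arrays, with slide 1 as squares, slide 2 as circles and the range of the lowest signal well above background as a grey band. The TLR3 probe lies at 32.8 to 37.7 units in single culture and at 73.5 to 118 in mix culture, whereas both TLR4 probes and the TLR5 and TLR8 probes lie at or under 1.61 units on every array.

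TLR3, the endosomal receptor for double-stranded RNA, was the receptor whose RNA rose in mix culture. Its signal was 37.7, 36.8 and 32.8 intensity units in single culture replicates 1, 2 and 3 and 118, 82.4 and 73.5 units in mix culture replicates 1, 2 and 3. Scaled to the 75th percentile of each array's signal, these were 18.3%, 22.1% and 19.0% in single culture and 50.7%, 45.6% and 45.7% in mix culture. Each mix culture array lay above every single culture array, and the scaled values within a group were close together although its arrays came from 2 slides. The normalised log2 signal went from -2.34 ± 0.14 to -1.08 ± 0.09 (SD, n = 3 each), a log2 change of 1.26 (SE 0.15, 95% CI 0.90 to 1.62) or 2.39-fold, with an adjusted p of 0.0140 by limma. It ranked 331 among the 26623 tested probes by log2 change, from the largest rise down.
The rise of TLR3 was present on both slides. On slide 1, with 1 array a group and so no test, the log2 change was 1.47, and on slide 2 it was 1.15 (adjusted p = 0.00489 by limma on those 4 arrays). With the slide in the model the adjusted p was 0.000867. In the fit with no slide term, the log2 change without the third single culture array was 1.23 and the adjusted p was 0.115. Without the second mix culture array they were 1.28 and 0.0842, and without the third mix culture array 1.28 and 0.0833. In that fit the call thus rested on each of these 3 arrays, all on slide 2, while the size moved little. Arrays were not left out with the slide in the model. In bulk RNA such as this, a change in the number of cells that express TLR3 and a change in RNA per cell cannot be told apart. In mix culture, neighbour RNA that passed the sort would add to the signal, and no array read neighbours alone, so this was not tested.

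TLR9, the endosomal receptor for DNA with unmethylated CpG, showed a smaller difference that did not pass the test. Its signal was 7.89, 8.39 and 6.98 intensity units in single culture and 11.9, 11.3 and 10.3 units in mix culture. All 3 mix culture arrays were higher than all 3 single culture arrays, although the signals were close to the background limit of 4.19 to 4.48 units. The normalised log2 signal averaged -4.55 ± 0.21 and -4.09 ± 0.18 in the respective groups (SD, n = 3 each), a log2 difference of 0.46 (SE 0.18, 95% CI 0.04 to 0.89, adjusted p = 0.525 by limma). The difference was 0.41 on slide 1 and 0.49 on slide 2, and with the slide in the model the adjusted p was 0.0556. With another background correction, normexp with an offset of 50 units, the log2 difference was 0.02. That offset exceeds the TLR9 signal of every array and shrinks log2 differences of weak signals. The value therefore cannot decide whether TLR9 differed.

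TLR7, a receptor for single-stranded RNA, was read by a pair of probes on the X chromosome. The probe at chrX:9359271-9359330 gave 8.42, 7.32 and 6.74 intensity units in single culture and 8.73, 6.19 and 6.06 in mix culture. After scaling, the groups did not overlap, with 3.91% to 4.39% of the 75th percentile in single culture and 3.42% to 3.76% in mix culture. The log2 difference was -0.18 (SE 0.14, 95% CI -0.52 to 0.16, adjusted p = 0.851), which did not pass the test and was opposite in sign to that of TLR3. These signals were close to the background limit too, and with normexp the log2 difference was -0.08. The offset of 50 units also exceeds the TLR7 signal of every array, so that value cannot decide either. The other TLR7 probe, at chrX:9360402-9360461, stayed at 1.13 to 1.24 units and was well above background on no array, so the TLR7 values rested on 1 of its 2 probes. TLR8, which also reads single-stranded RNA, had its probe at chrX:9399819-9399878, and its signal of 0.917 to 0.931 units was well above background on no array.

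Of the surface receptors, TLR2, which recognises bacterial lipopeptides together with TLR1 or TLR6, was read by 3 probes on chromosome 15. The probe at chr15:51465303-51465359 gave 22.2, 16.8 and 13.9 intensity units in single culture and 32.9, 11.5 and 13.7 units in mix culture. The probe at chr15:51464976-51465035, whose sequence is shown above, gave 5.27, 6.73 and 4.70 units in single culture and 10.3, 3.86 and 5.06 units in mix culture, where replicate 2 was not well above background. In both, replicate 1 of the mix culture was the highest of the 6 arrays and replicate 2 of the mix culture the lowest, and the groups overlapped. The log2 differences were -0.07 (SE 0.30, 95% CI -0.78 to 0.65) and 0.02 (SE 0.31, 95% CI -0.70 to 0.75), with adjusted p-values of 0.985 and 0.993. The direction was not the same on the slides. On slide 1 the log2 differences of these probes were 0.39 and 0.79, and on slide 2 they were -0.29 and -0.36. Whether the slides differed in this was not tested.

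The remaining TLR2 probe, at chr15:51464399-51464458, was well above background on 1 array, replicate 1 of the mix culture, at 4.81 units. On the other 5 arrays it gave 0.908 to 1.89 units. That single array was also the highest for the other TLR2 probes, but with 2 of the 3 mix culture arrays at background no fold is given for this probe.

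TLR1, the partner of TLR2 for triacylated lipopeptides, showed a difference that did not pass the test. Its signal was 39.4, 24.1 and 31.6 intensity units in single culture and 48.7, 26.9 and 23.2 units in mix culture. The groups overlapped, and replicate 1 was the brightest array of each group. The log2 difference was -0.06 (SE 0.21, 95% CI -0.55 to 0.44, adjusted p = 0.981), at 0.13 on slide 1 and -0.15 on slide 2. TLR10, a relative of TLR1 and its neighbour on chromosome 3 at chr3:73570678-73570737, gave 2.68, 0.845 and 2.17 units in single culture and 4.56, 1.85 and 1.1 units in mix culture. It was well above background on 1 array, again replicate 1 of the mix culture, and no fold is given.

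TLR4, the receptor for bacterial lipopolysaccharide, and TLR5, the receptor for flagellin, were well above background on no array. The TLR4 probe at chr11:71366306-71366365 was printed in 5 spots per array, whose mean was 0.985 to 1.01 units over the 6 arrays. The TLR4 probe at chr11:71367091-71367150 gave 0.880 to 0.934 units. The TLR5 probe at chr38:23705247-23705306 gave 1.20 to 1.61 units. These signals were under the lowest signal that counted as well above background on any array, so no level or change of these receptors was detectable here, which does not show that their RNA was absent.

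In all, 6 receptor probes of 5 genes could be tested and 1 was called, that of TLR3, against 0.883% of all tested probes. At an unadjusted p under 0.05, 2 were, those of TLR3 and TLR9, against 8.71% of all tested probes. The groups did not overlap for 3 of the 6 probes (TLR3, TLR9 and TLR7), against 16.5% of all tested probes. The log2 differences of the 6 were above 0 for 3 and below 0 for 3, with a median of -0.02, and the median over all tested probes was -0.05. With the slide as a block, TLR3 remained the 1 receptor probe called, where 7.2% of all tested probes were called.

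**Figure D2:**
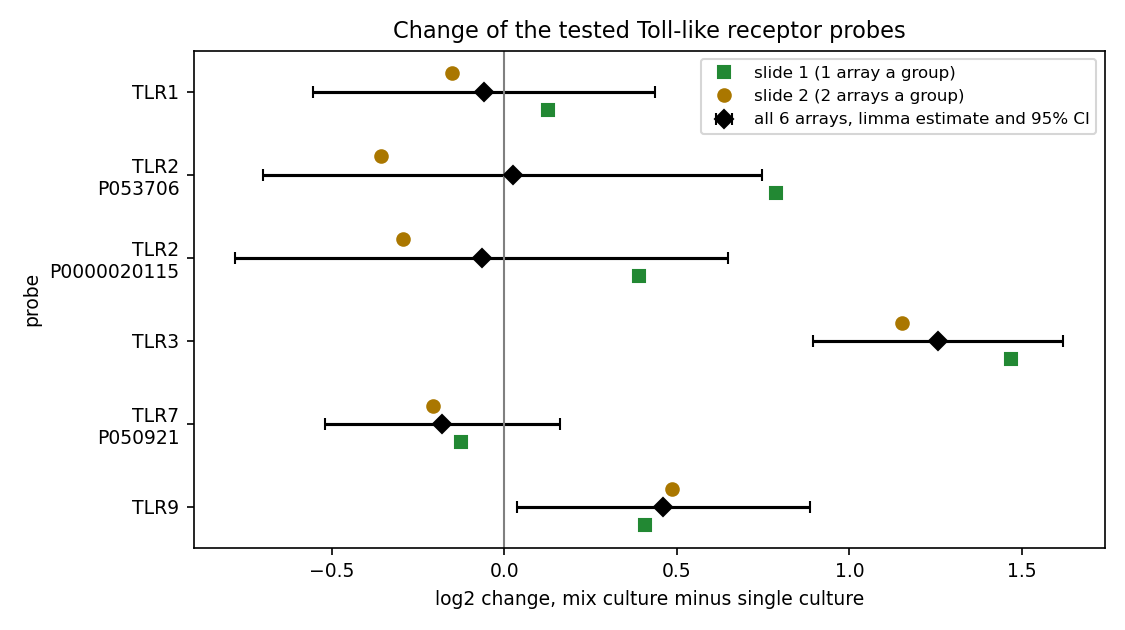
Log2 change, mix culture minus single culture, of the 6 tested receptor probes. Black diamonds and bars give the limma estimate over all 6 arrays with its 95% CI, green squares slide 1 and ochre circles slide 2. TLR3 lies at 1.26 with both slides above 1, whereas the TLR1 and TLR2 probes have slide 1 above 0 and slide 2 below 0.

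Genes that act around the receptors were followed through a list of 59 symbols in 6 roles. 48 had a probe under their symbol, and 35 had one that could be tested. None was called by limma, against 0.934% of the 10172 symbols tested with 1 probe each, whereas 7 passed an unadjusted p under 0.05, 6 of them higher in mix culture, against 8.51% of all symbols. The methods' t-test also called 0 after adjustment and 6 at an unadjusted p under 0.05. The groups did not overlap for the same 7 genes, or 20% of the 35, against 16.4% of all symbols. The log2 differences were above 0 for 20 genes and below 0 for 15, with a median of 0.06, and the median over all symbols was -0.05. With the slide as a block 5 of the 35 were called, all higher in mix culture, where 7.46% of all symbols were called.

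Among the co-receptors and chaperones, 5 of 8 were tested and none was called with or without the slide block. UNC93B1, which carries the nucleic acid receptors to endosomes, was at 3.91 to 4.36 normalised log2 units in single culture and 3.87 to 4.12 in mix culture. The groups overlapped, with a log2 difference of -0.06 (SE 0.18). The largest differences in the role were -0.28 (SE 0.17) for LRRC59, which binds UNC93B1, and 0.17 (SE 0.47) for CNPY3, a folding chaperone of the receptors, with adjusted p-values of 0.774 and 0.977.

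Of the 6 adaptors, 3 were tested. TICAM1, the adaptor of TLR3, was at -3.62, -2.65 and -2.35 normalised log2 units in single culture and -4.0, -2.58 and -2.45 in mix culture. The slide 1 array was the lowest of each group, and the log2 difference was -0.14 (SE 0.49, 95% CI -1.30 to 1.02). With the slide in the model the same difference had an SE of 0.13 and a 95% CI of -0.45 to 0.17 (adjusted p = 0.540). MYD88, the adaptor of the other receptors, was at 0.56, 0.76 and 0.62 units in single culture and 0.90, 1.33 and 1.39 in mix culture. Its groups did not overlap, and its log2 difference of 0.56 (SE 0.18) had an adjusted p of 0.402, or 0.0286 with the slide block. With the replicate block the adjusted p was 0.0550, and with mix culture replicates 2 and 3 exchanged in the block it was 0.0491.

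The kinases and ubiquitin ligases had 12 of 20 members tested. TBK1, the kinase that phosphorylates IRF3, was at 1.51, 1.74 and 1.84 normalised log2 units in single culture and 2.20, 2.24 and 2.12 in mix culture. All mix culture arrays were the higher ones, and the log2 difference was 0.49 (SE 0.16), with an adjusted p of 0.374, or 0.0412 with the slide block and 0.0782 with the replicate block. A further TBK1 probe differed by 0.35 (SE 0.15). TAB3, a subunit of the TAK1 kinase complex, differed by 0.43 (SE 0.18, adjusted p = 0.568, or 0.105 with the slide block). TRAF3, a ubiquitin ligase between TICAM1 and TBK1, differed by 0.07 (SE 0.25, adjusted p = 0.981), and its groups overlapped. UBE2V1, a ubiquitin-conjugating enzyme variant named after its values were seen, was the 1 gene of the list that was lower with an unadjusted p under 0.05, at -0.41 (SE 0.17, adjusted p = 0.548).

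Of the 7 inhibitors, 6 were tested. NFKBIA, the inhibitor that holds NF-κB in the cytoplasm and is itself a target of NF-κB, was at 0.21, 0.74 and 0.63 normalised log2 units in single culture and 1.09, 1.57 and 1.20 in mix culture. The groups did not overlap, and the log2 difference was 0.76 (SE 0.21), with an adjusted p of 0.276, or 0.0126 with the slide block and 0.0147 with the replicate block. A further NFKBIA probe differed by 0.73 (SE 0.26). TRAFD1, a brake on receptor signalling, differed by 0.49 (SE 0.15, adjusted p = 0.354, or 0.0439 with the slide block and 0.0816 with the replicate block). Its 2 other probes differed by 0.38 (SE 0.27) and 1.05 (SE 0.23), so the size depended on the probe.

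None of the 6 tested transcription factors of 7 was called with or without the slide block. IRF3, the factor that TBK1 activates, was at 3.63, 4.39 and 4.12 normalised log2 units in single culture and 3.54, 4.16 and 4.31 in mix culture. Its groups overlapped, with a log2 difference of -0.04 (SE 0.28). IRF5, an interferon regulatory factor of the MYD88 route, differed by 0.50 (SE 0.35, adjusted p = 0.816), and FOS, a subunit of AP-1, by 0.40 (SE 0.32, adjusted p = 0.850).

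Of 11 output genes, 3 could be tested. CCL5, a chemokine, was at -3.86, -3.95 and -4.51 normalised log2 units in single culture and -2.46, -2.98 and -3.11 in mix culture. Every mix culture array was above every single culture array, and the log2 difference was 1.26 (SE 0.25), with an adjusted p of 0.10, or 0.00338 with the slide block and 0.00275 with the replicate block. On slide 1 the difference was 1.40 and on slide 2 it was 1.18. The single culture values of CCL5 were close to the background limit, which was -5.78 to -5.22 on this scale. With normexp, 0 signalling genes were called, CCL5 included. Its offset of 50 units shrinks log2 changes of signals this weak, so that setting could not decide whether CCL5 changed. CD86, a co-stimulatory ligand, differed by 0.38 (SE 0.39, adjusted p = 0.903), at 1.06 on slide 1 and 0.03 on slide 2. CXCL10, a chemokine named after its values were seen as the last of the 3, differed by -0.18 (SE 0.15, adjusted p = 0.866), at 0.01 on slide 1 and -0.27 on slide 2. IFNB1, IL6, IL1B, IL12B and CD80 were well above background on no array, so changes of these outputs could not be measured.

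**Figure D3:**
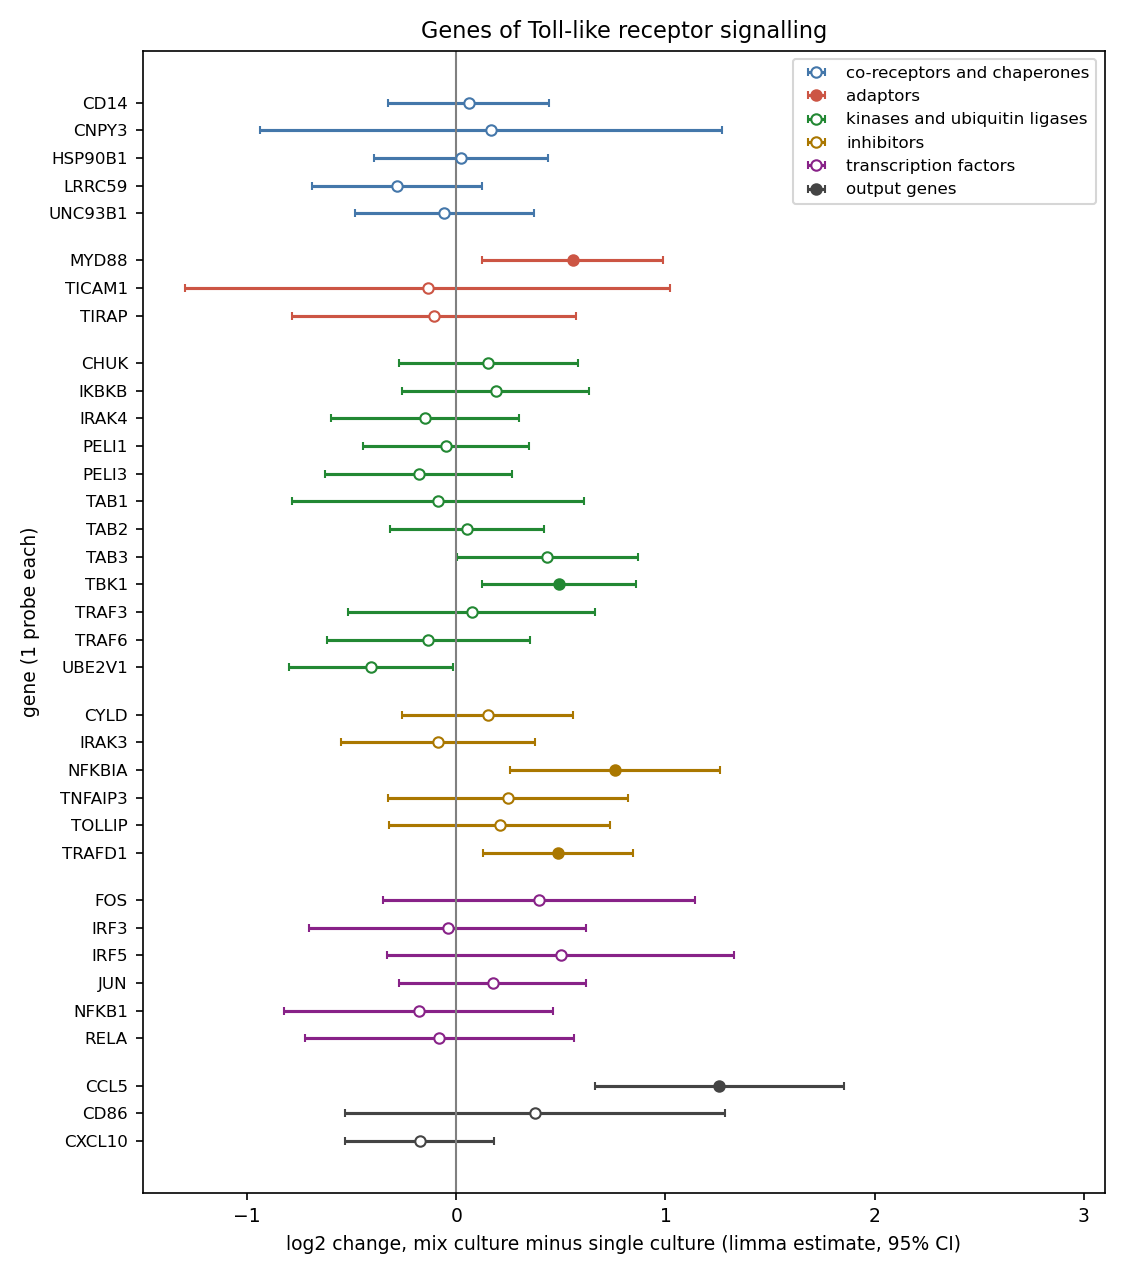
Log2 change, mix culture minus single culture, of the 35 tested genes of the signalling list, 1 probe each, by role, with 95% CI from limma over all 6 arrays. Filled points are the 5 genes called with the slide as a block (MYD88, TBK1, NFKBIA, TRAFD1 and CCL5), all to the right of 0.

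The genes whose pattern over the 6 arrays was most like that of TLR3 were sought among 25612 other probes well above background on all 6 arrays. Each probe was centred on its own mean, and the smallest root mean square differences from TLR3 were taken. They were 0.07 log2 units for RABGAP1L, a GTPase-activating protein for Rab GTPases, and 0.09 for DTX3L, a ubiquitin ligase. PHLDB2, a protein with a pleckstrin homology-like domain, and NUDT4, a diphosphoinositol polyphosphate hydrolase, were both at 0.11. RGS2, a regulator of G-protein signalling, was at 0.13. The likeness used the same 6 arrays as the comparison, so that these genes also rose is part of how they were chosen. Their log2 changes lay between 1.1 and 1.38.

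**Figure D4:**
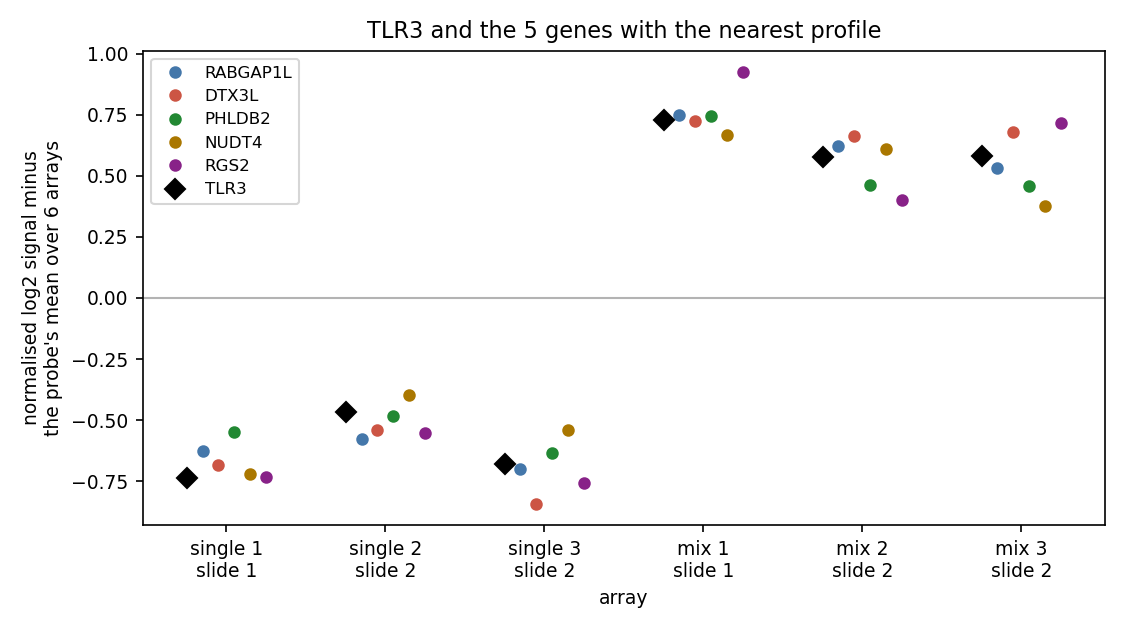
Normalised log2 signal of TLR3 (black diamonds) and of the 5 genes nearest to it (coloured points), each minus its own mean over the 6 arrays, by array. All 6 genes lie below 0 on the 3 single culture arrays and above 0 on the 3 mix culture arrays.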

How the data were processed

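Cy3-labelled total RNA of 6 samples was hybridised to single-colour Agilent canine arrays. The authors deposited 1 scanner file per array with spot intensity on a linear scale, which Feature Extraction (11.5.1.1 on slide 1, 12.1.1.1 on slide 2, per the file headers) had background-subtracted without scaling arrays to one another. A table of log2 values deposited by the authors was also at hand. On slide 1 its 2 values of each probe summed to within 0.011 of 0, so they were centred within that slide. Centring within slide 2 was not checked. The table served as an alternative, and its columns for mix culture replicates 2 and 3 matched the scanner files of replicates 3 and 2 (correlations of 0.999 and 0.993).

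Outlier spots were dropped (5 to 9 per array), log2 signals were averaged over the spots of a probe, and the 75th percentile of each array was taken off. No spot was saturated. Probes that were well above background throughout 1 or both groups were tested with limma 3.58.1 in R 4.3.3 (lmFit, eBayes, two-sided, no covariate), adjusted by Benjamini-Hochberg over all probes tested and called at an adjusted p under 0.05. The fit was tested on simulated data, whose noise was independent between arrays and whose planted changes were larger than that of TLR3. They held no slide effect, so that test did not cover slide differences. The number of arrays limits the precision. Groups and replicate numbers came from the sample titles.

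Named genes were every receptor probe, from each role the called symbols, the 2 with the largest absolute log2 change and TICAM1, UNC93B1, TRAF3, TBK1 and IRF3, and the 5 nearest to TLR3. Where a symbol had several tested probes, the brightest was used. Members and lists were chosen with earlier results of these data known. The replicate blocks took the replicate number as pairing. After subtraction of group means, single and mix cultures of the same number correlated at 0.801, 0.530 and 0.572. Within slide 2, the 2 pairs of unlike number correlated more highly (0.610 and 0.632). Every pair split between the slides had a negative correlation (-0.707 to -0.666). The sign followed the slide, so these correlations cannot show whether the number marks a pairing. The deposited sources also disagree on mix culture replicates 2 and 3. Whether the cultures were paired, and which mix culture belongs with which single culture, is unsettled. The exchanged pairing was added after the data were seen. Alternatives were other filters, quantile normalization, normexp, slide and replicate blocks, slide 2 alone, leaving out each array, the authors' table, the methods' t-test and the mean of a symbol's probes. Receptor proteins and promoters were not analysed here.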

Additional observations from a re-analysis of the deposited data

How the results depend on the processing

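TLR3 was higher in mix culture under all 16 alternatives and kept its call under 11 of them. It lost the call with normexp (log2 change 0.65, adjusted p = 0.0820), whose offset of 50 units exceeds the TLR3 signal of every single culture array, and with the methods' t-test (1.26, adjusted p = 0.0976). Leaving out each array in turn gave log2 changes of 1.20 to 1.34. The receptor probes called numbered 1 in the fit reported, 0 with normexp, 0 with the methods' t-test, 0 to 1 when each array was left out, and 2 (TLR3 and TLR9) from the authors' table. That table was centred within slide 1, was not checked for slide 2 and was fitted by limma with no slide term. Its p-values therefore cannot be relied on. TLR9 was called there alone, at an adjusted p of 0.0142, against 0.0556 with the slide block. TLR3 was the 1 receptor called with the replicate block too, although that block assumes a pairing that is unsettled. The signalling genes called numbered 0 in the fit reported, 5 with the slide block, 2 with the replicate block (CCL5 and NFKBIA), 3 with mix culture replicates 2 and 3 exchanged in that block (these and MYD88), 2 on slide 2 alone (CCL5 and MYD88), 1 with no background filter (PIK3AP1) and 7 from the authors' table. Over all probes, 235 calls became 143 when a probe had to be well above background on all 6 arrays, 101 by normexp, 1917 with the slide block, 983 on slide 2 alone, 1399 with the replicate block, 1446 with that exchange, 4077 from the authors' table and 8 with the methods' t-test, and 86 to 242 when each array was left out. With signals close to background, changes of TLR4, TLR5, TLR8 and TLR10 could not be measured.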

Other observations

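Among the signalling genes that could not be tested, PIK3AP1, an adaptor that links the receptors to phosphoinositide 3-kinase, was chosen for mention after its values were seen. Its signal was 1.23, 1.11 and 1.19 intensity units in single culture and 4.18, 3.83 and 3.19 units in mix culture, and it was well above background on no array. CCL4, a chemokine chosen in the same way, was well above background on 2 of the 3 mix culture arrays and on no single culture array with 1 of its probes, at 6.26, 3.99 and 6.20 units in mix culture and 3.93, 3.01 and 4.08 units in single culture. Its other probe read 7.83 units on replicate 1 of the mix culture and 0.993 to 1.04 units on the other 5 arrays.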
